A study of Zea mays with 12 samples.

Results

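Transcripts of 4 genes of abscisic acid (ABA) signaling were followed in the primary root tip of maize. They were taken by identifier from the 42976 features of the count matrix, and all 4 were among the 26746 features with enough counts to be tested. Their descriptions in the study's table of maize transcripts are PYR1-like 2 (Zm00001d016294, an ABA receptor), a SnRK2 protein kinase of the type named SnRK2.10 in Arabidopsis (Zm00001d016783) and, for 2 genes, ABA responsive elements-binding factor 2 (ABF2; Zm00001d031790 and Zm00001d050018). The genes had been chosen because their abundance in stressed roots at 48 h differed from both well-watered controls. Those 48 h differences are therefore given as description, and tests are kept for comparisons that were not part of this criterion.

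In plants, ABA accumulates when tissue water becomes scarce and is perceived by soluble PYR/PYL/RCAR receptors. A receptor that holds ABA captures protein phosphatases 2C (PP2C), which otherwise keep SnRK2 kinases inactive. In Arabidopsis, kinases released in this way phosphorylate bZIP transcription factors of the ABF family, which bind ABA-responsive elements in the promoters of genes for dehydration tolerance, and SnRK2.10 belongs to a subgroup of the kinases that responds to osmotic stress with little or no activation by ABA.

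The seedlings were of the inbred line FR697, grown in the dark in vermiculite, and 3 libraries were made for each of 4 groups. Water-stressed seedlings were held at −1.6 MPa for 24 h (WS24) or 48 h (WS48) after transplanting, and well-watered seedlings at −0.02 MPa for 24 h (WW24) or 48 h (WW48). Each library pooled root tips, and the study describes replicates as coming from independent experiments. WW48 had the age of WS48, and WW24, the developmental control, was close to it in root length. For WS24, WW24 was the control of the same age, and the study had no well-watered control of like root length. Effects of stress and of root development can therefore not be told apart at 24 h. Tips were cut at 7 mm in stressed and 12 mm in well-watered roots so as to hold the whole elongation zone, and treatment and segment length therefore cannot be told apart in any comparison of WS with WW. The sources name no marker of root cap, endodermis or vascular tissue among described genes, so the tissue label was not checked against such markers.

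Gene counts per library ranged from 40005384 to 54863708. WS24 replicate 3 stood apart, with 23.1% of its reads not aligned against 12.7 to 15% in the other 11 libraries. Abundance is given as CPM, the count of a gene relative to the library size after TMM scaling, which corrects for differences in RNA composition. Changes are log2 fold changes from 1 edgeR fit to all 12 libraries, with an approximate standard error (SE). A call of increased or decreased needed both an adjusted p no higher than 0.05 and a log2 change of 1 or more in either direction. Gene lengths of this annotation were not used here, so abundances are compared between groups within a gene and not between genes.

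At 24 h the ABF2 transcripts and the receptor transcript changed in opposite directions. Both ABF2 transcripts were called increased in WS24 relative to WW24, by 4.01-fold for Zm00001d031790 and 2.79-fold for Zm00001d050018, where 9.27% of all tested features were called increased. The PYR1-like 2 receptor transcript was called decreased, where 5.64% of all features were. In either direction 3 of the 4 genes were called, where 14.9% of all features were. The kinase transcript was lower in WS24 with a small adjusted p but stayed short of the fold needed for a call. The 48 h criterion did not use the WS24 libraries, although it used the WW24 libraries. The genes were chosen with earlier results of these data known, so the 24 h comparison is not independent of the choice. By the study's account most maize transcripts chosen at 48 h responded similarly at 24 h, so calls were likely for these genes. The shares over all features therefore do not show the 4 genes to be unusual. In root tips as a whole, fewer cells of a type and less RNA per cell cannot be told apart.

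**Figure D1:**
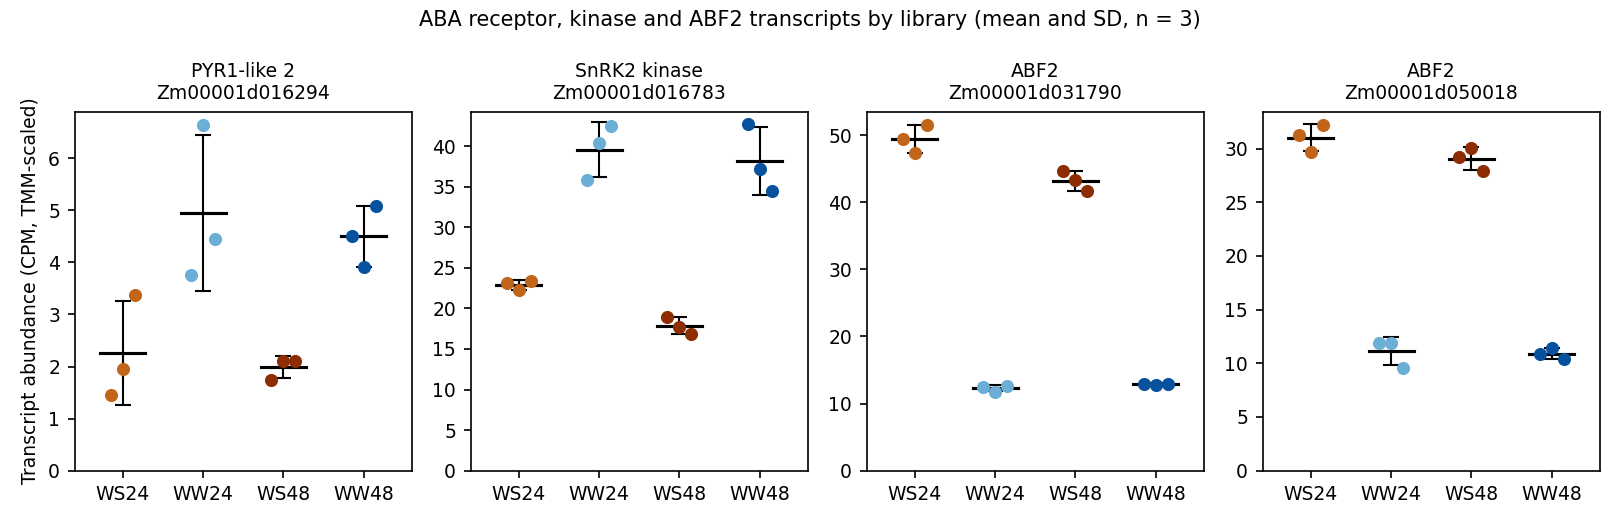
Transcript abundance of the 4 genes in every library, in CPM after TMM scaling on a linear axis from 0, with 1 point per library and the mean and SD of each group (n = 3). Both ABF2 transcripts stand at 27.9 CPM or more in all stressed libraries and at 13.0 CPM or less in all well-watered ones, and the receptor and kinase transcripts lie lower in the stressed libraries of each time.

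The receptor PYR1-like 2 had the fewest counts of the genes, 66 to 138 in WS24, and varied most among WS24 libraries. It stood at 1.46, 1.95 and 3.37 CPM in WS24, against 3.76, 6.63 and 4.44 CPM in WW24. The groups did not overlap, but the highest stressed library, WS24 replicate 3, came close to the lowest well-watered one, WW24 replicate 1. The log2 change was −1.13 (SE 0.29, edgeR adjusted p = 0.00634), with means of 2.26 ± 0.995 CPM in WS24 and 4.95 ± 1.5 CPM in WW24 (SD, n = 3 each). The spread among WS24 libraries was 44% of their mean, where counting error alone would give 10.4%. The call rested on single libraries: without WS24 replicate 1 the change was −0.89 (adjusted p = 0.0284) and without WW24 replicate 2 it was −0.86 (adjusted p = 0.0348), both under the fold threshold, whereas without WS24 replicate 3, the library with most unaligned reads, it was −1.52 (adjusted p = 0.000796). With no scaling factors it was −0.99 (adjusted p = 0.0107), also short of a call.

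At 48 h the receptor transcript was more even among stressed libraries. WS48 libraries held 1.74, 2.10 and 2.11 CPM, against 4.51, 3.91 and 5.08 CPM in WW48. Each stressed library lay below each well-watered one. The log2 change in WS48 was −1.18 (SE 0.29) relative to WW48 and −1.31 (SE 0.29) relative to WW24, the comparisons that had chosen the gene. Over all features 6.88% were called decreased relative to WW48 and 4.79% relative to WW24, and nothing is read from these shares because the same comparisons chose the genes.

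The SnRK2 kinase transcript was lower under stress at both times, with little spread among stressed libraries. It was at 23.2, 22.2 and 23.4 CPM in WS24, against 35.8, 40.4 and 42.4 CPM in WW24. No library of either group came near the other group. The log2 change was −0.79 (SE 0.09, 95% interval −0.99 to −0.59, adjusted p = 2.15e-05), so that the interval ended just inside the fold threshold of 1. With the adjusted p alone as the criterion the kinase would be called decreased, but so would 21.4% of all tested features, with 21.9% increased.

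By 48 h the kinase stood lower still. It was at 19.0, 17.8 and 16.9 CPM in WS48, against 42.7, 37.2 and 34.4 CPM in WW48. The 3 WS48 values were also below the 3 of WS24, with a log2 change of −0.36 (SE 0.09) in WS48 relative to WS24. This difference was not tested, because the WS48 libraries chose the gene. Relative to WW48 the log2 change was −1.09 (SE 0.09), and relative to WW24 it was −1.15 (SE 0.09). These changes were −0.96 and −1.003 when library totals were used with no scaling factors.

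The ABF2 transcript Zm00001d031790 varied little among replicates. It stood at 49.4, 47.4 and 51.5 CPM in WS24, against 12.5, 11.8 and 12.7 CPM in WW24. Stressed and well-watered libraries were far apart, and the SD was 4.2% of the mean in WS24 and 3.92% in WW24. The log2 change of 2.0 (SE 0.07, adjusted p = 6.02e-10) was exceeded by 1208 of the 26746 tested features. In WS48 the transcript was at 44.7, 43.2 and 41.7 CPM, against 13.0, 12.7 and 12.9 CPM in WW48. The WS48 libraries again stood above every well-watered library, with a log2 change of 1.75 (SE 0.07) relative to WW48 and 1.81 (SE 0.07) relative to WW24. Over all features 7.2% were called increased relative to WW48 and 7.84% relative to WW24, the comparisons that chose the gene, and 14.1% and 12.6% were called in either direction.

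The second ABF2 transcript, Zm00001d050018, showed the same direction with a smaller change. It was at 31.3, 29.6 and 32.2 CPM in WS24, against 11.9, 11.9 and 9.59 CPM in WW24. The groups did not overlap, and WW24 replicate 3 lay below the other well-watered libraries of its time. The log2 change was 1.48 (SE 0.09, adjusted p = 1.03e-07). In WS48 it was at 29.2, 30.1 and 27.9 CPM, against 10.9, 11.4 and 10.4 CPM in WW48. These values gave a log2 change of 1.42 (SE 0.09) relative to WW48 and 1.39 (SE 0.09) relative to WW24.

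**Figure D2:**
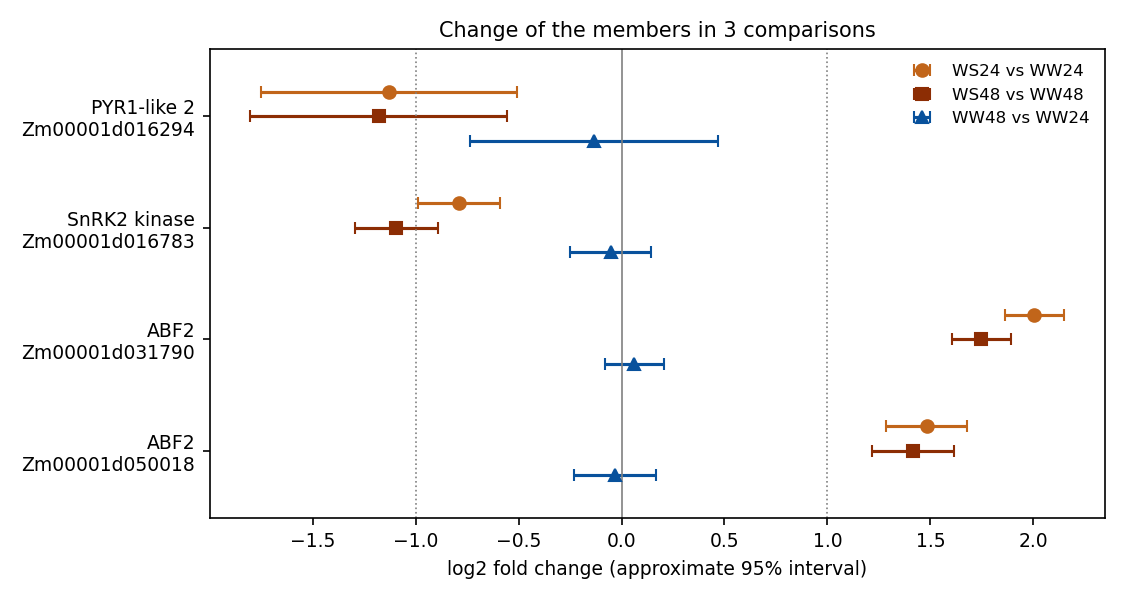
Log2 fold changes of the 4 genes with approximate 95% intervals in WS24 relative to WW24, WS48 relative to WW48 and WW48 relative to WW24, with dotted lines at the fold threshold of 1. Changes under stress lie on the same side at both times, from −1.18 to 2.0, whereas the intervals for age in well-watered roots include 0 for each gene.

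The study compared WS24 with WW24 to ask whether the response at 48 h was already present at 24 h. It reported that most of its maize transcripts responded similarly at 24 h, and described the response as stable. For the receptor the response at 48 h differed from that at 24 h by −0.05 on the log2 scale (95% interval −0.92 to 0.82), an interval too wide to show whether the responses were alike. For Zm00001d050018 the difference was −0.06 (−0.34 to 0.21). For the kinase it was −0.31 (−0.59 to −0.03), with the larger decrease at 48 h. For Zm00001d031790 it was −0.26 (−0.46 to −0.06), a smaller increase at 48 h, with 41.7 to 44.7 CPM in WS48 and 47.4 to 51.5 CPM in WS24. These differences use the WS48 libraries and were not tested for the 4 genes. A choice by the change at 48 h favors larger changes at that time, as in the kinase, whereas Zm00001d031790 had the smaller change at 48 h. No interval is read as a difference between times, because none was tested. Over all features 0.34% were called increased in WS48 relative to WS24, 0.568% decreased and 0.909% in either direction.

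With age alone, in well-watered roots, the 4 transcripts differed by 0.13 or less on the log2 scale. Both groups were controls in the choice of the genes, so these differences are a description. Over all features 0.789% were called increased, 0.191% decreased and 0.98% in either direction. The log2 change in WW48 relative to WW24 was −0.13 (95% interval −0.74 to 0.47) for the receptor and −0.05 (−0.25 to 0.14) for the kinase. It was 0.06 (−0.08 to 0.21) for Zm00001d031790 and −0.03 (−0.23 to 0.17) for Zm00001d050018. The interval was widest for the receptor, and a change within it cannot be told from none in these libraries. The libraries of WW48 and WW24 overlapped for each gene but Zm00001d031790, where the lowest of WW48 and the highest of WW24 were both 12.7 CPM after rounding. The share of all features without overlap was not computed for any comparison, so overlap is given as description only.

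The order of the 4 groups was thus similar within each pair of genes. For both ABF2 genes the order from high to low was WS24, WS48 and then the well-watered groups. WS24 and WS48 overlapped for Zm00001d050018 but not for Zm00001d031790, and WW24 and WW48 overlapped for Zm00001d050018 but, by a narrow margin, not for Zm00001d031790. For the receptor and the kinase the order was WW24, WW48, WS24 and WS48. In the receptor neither the well-watered nor the stressed groups differed beyond their spread, and in the kinase the well-watered groups did not.

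The ABF2 genes carry the same description, and whether they changed alike was asked within each library. The log2 ratio of CPM of Zm00001d031790 to Zm00001d050018 was 0.66, 0.68 and 0.68 in WS24, against 0.08, −0.02 and 0.40 in WW24. Every stressed ratio was above every well-watered one, and the level of the ratio itself also reflects gene length, which cancels in its difference. The mean difference was 0.52, with 0.672 ± 0.0102 in WS24 and 0.154 ± 0.217 in WW24 (SD, n = 3 each). The two-sided exact permutation p was 0.1, the smallest that 3 against 3 libraries can give. At 48 h the ratio was 0.61, 0.52 and 0.58 in WS48, against 0.25, 0.15 and 0.32 in WW48. Whether the genes share reads through near-identical sequence was not tested, and the ratio is uncertain to that extent.

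**Figure D3:**
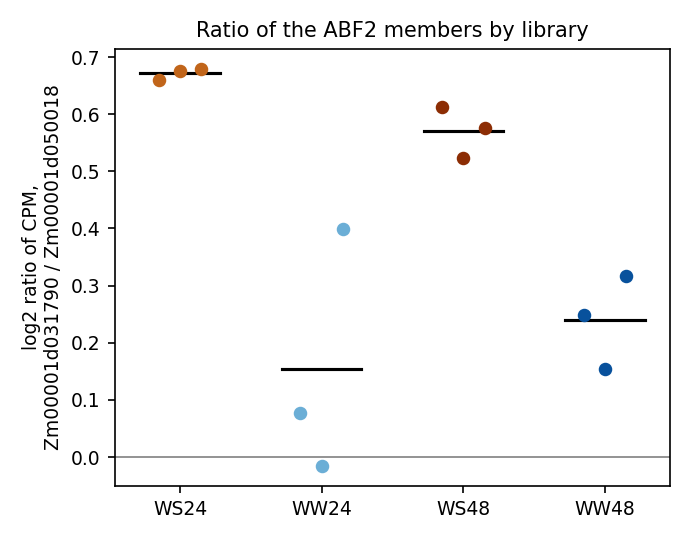
Log2 ratio of the CPM of Zm00001d031790 to that of Zm00001d050018 in each library, with a bar at the group mean (n = 3). All 6 stressed libraries lie at 0.52 or above and all 6 well-watered libraries at 0.40 or below.

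The study's table describes 3 further transcripts as ABF2, and all 3 were called increased in WS24 relative to WW24, where 9.27% of all features were. They rose by 3.49 (SE 0.26, Zm00001d037170), 2.75 (SE 0.24, Zm00001d044940) and 2.61 (SE 0.30, Zm00001d020711) on the log2 scale, with edgeR adjusted p-values of 5.1e-07, 1.86e-06 and 1.85e-05. Thus all 5 transcripts of this description in the table rose at 24 h. The table holds only transcripts that changed at 48 h, so genes of this kind without a response could not appear. Zm00001d037170 was at 9.90, 8.10 and 8.22 CPM in WS24, against 1.04, 0.48 and 0.78 CPM in WW24. Zm00001d044940 was at 17.5, 20.2 and 21.0 CPM in WS24, against 4.36, 2.05 and 2.22 CPM in WW24. Zm00001d020711 was at 25.8, 25.2 and 24.5 CPM in WS24, against 7.02, 2.56 and 2.73 CPM in WW24. WW24 replicate 1 was the highest well-watered library of its time for each of these genes.

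These further ABF2 transcripts stood lower at 48 h than at 24 h of stress. Zm00001d037170 averaged 4.95 ± 0.707 CPM in WS48 and 8.74 ± 1.01 CPM in WS24, and 0.687 ± 0.180 CPM in WW48 (SD, n = 3 each). Zm00001d044940 averaged 11.9 ± 0.785 CPM in WS48 and 19.5 ± 1.84 CPM in WS24, and 2.52 ± 0.470 CPM in WW48. Zm00001d020711 averaged 17.7 ± 2.39 CPM in WS48 and 25.2 ± 0.672 CPM in WS24, and 5.17 ± 0.783 CPM in WW48. In the same order, the log2 changes in WS48 relative to WS24 were −0.82 (SE 0.23), −0.71 (SE 0.22) and −0.50 (SE 0.27). The same change was −0.20 (SE 0.06) for Zm00001d031790 and −0.09 (SE 0.09) for Zm00001d050018. Whether the genes differ in this was not tested.

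**Figure D4:**
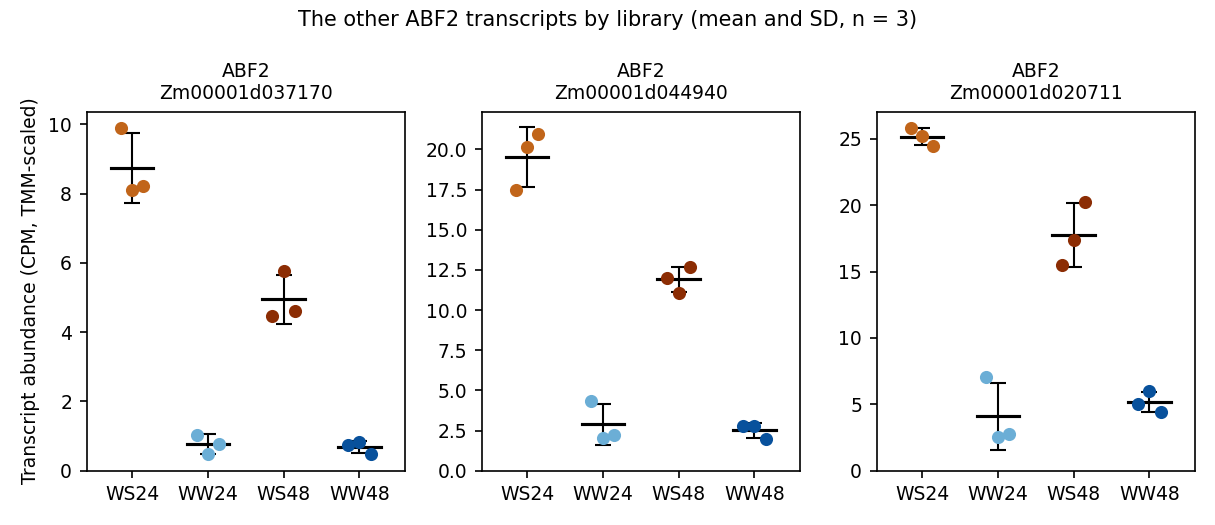
Transcript abundance of the 3 other genes described as ABF2 in every library, in CPM after TMM scaling on a linear axis from 0, with the mean and SD of each group (n = 3). Stressed libraries are above the well-watered libraries of the same time in each panel, and WS48 lies between WS24 and the well-watered groups.

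Among the other described genes of ABA synthesis and signaling and the LEA genes, more were increased than decreased at 24 h. All lists come from the study's own table, which was selected on WS48 relative to WW48 and WW24 in these libraries, so their counts are a description and not independent evidence of a direction. Of these 43 genes in 6 lists, 32 were called increased, 9 decreased and 2 were not called in WS24 relative to WW24, where 9.27% of all features were called increased and 5.64% decreased. Nothing particular to the lists is read from these counts. The median log2 change over all 26746 features was 0.01.

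Upstream of the receptor, both listed genes of ABA synthesis were increased, where 9.27% of all features were. Nine-cis-epoxycarotenoid dioxygenase 9 (Zm00001d033222), of the rate-limiting step, averaged 14.7 ± 0.759 CPM in WS24 and 1.05 ± 0.0131 CPM in WW24 (adjusted p = 4.86e-07). Zeaxanthin epoxidase (Zm00001d003512), which acts earlier in the path, averaged 18.6 ± 1.86 CPM in WS24 and 5.38 ± 0.543 CPM in WW24 (adjusted p = 5.6e-07). PYR1-like 2, the only receptor of this family described in the table, moved opposite to the synthesis genes.

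Of 14 transcripts described as PP2C, 12 were called increased and 1 decreased (9.27% and 5.64% of all features), with a median log2 change of 2.34. Those with the smallest adjusted p were Zm00001d025055, which averaged 53.8 ± 3.52 CPM in WS24 and, with 24 counts in all, 0.186 ± 0.0455 CPM in WW24, and a homolog of ABI2 (Zm00001d044301), a phosphatase that binds the receptors in Arabidopsis. The ABI2 homolog averaged 101 ± 8.39 CPM in WS24 and 22.1 ± 0.961 CPM in WW24. The decreased gene, Zm00001d031329, had a log2 change of −1.03 (SE 0.10), and the uncalled gene, Zm00001d029419, had one of −0.92 (SE 0.14). Both were named after their values were seen. They and Zm00001d025055 are described only by the PP2C family, whereas some of the 14 are described as highly ABA-induced. Whether the 14 act between this receptor and this kinase was not tested.

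Of 3 other bZIP genes in the study's table, which holds only transcripts that changed at 48 h, 1 was increased and 2 decreased (9.27% and 5.64% of all features). Basic leucine zipper 9 (Zm00001d046937) fell to 2.11 ± 0.457 CPM in WS24, against 54.1 ± 5.63 CPM in WW24 (adjusted p = 2.96e-09). The bZIP family gene Zm00001d052543 averaged 11.0 ± 2.14 CPM in WS24 and 25.8 ± 5.18 CPM in WW24. The rise of the ABF2 transcripts was thus not shared by all described bZIP genes.

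A further list held 5 genes with ABA in their description or in the study's ABA category, or of the SNF1-related kinase complex. Of these, 3 were increased and 2 decreased (9.27% and 5.64% of all features). A GRAM domain gene, Zm00001d023664, rose to 28.8 ± 7.88 CPM in WS24, against 1.83 ± 0.305 CPM in WW24. Another, Zm00001d025901, described as related to an ABA-responsive protein, fell to 5.25 ± 1.66 CPM in WS24, against 18.0 ± 1.98 CPM in WW24. Zm00001d025901 was named after its values were seen. The gene described as related to ABI3/VP1 (Zm00001d043782), of a family of transcription factors with a B3 domain, fell to 2.26 ± 0.269 CPM in WS24, against 11.0 ± 0.408 CPM in WW24.

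Downstream, of 16 genes for dehydrins and other late embryogenesis abundant (LEA) proteins, a class that includes known targets of ABF factors in Arabidopsis, 11 were increased and 4 decreased (9.27% and 5.64% of all features), with a median log2 change of 1.90. The dehydrin Zm00001d037894 averaged 467 ± 64.5 CPM in WS24 and 1.33 ± 0.381 CPM in WW24. The LEA gene Zm00001d038870 averaged 21.1 ± 3.93 CPM in WS24 and 0.15 ± 0.0962 CPM in WW24, where it had 19 counts in all. Both stood lower in WS48, at 116 ± 11.8 and 10.7 ± 1.90 CPM.

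**Figure D5:**
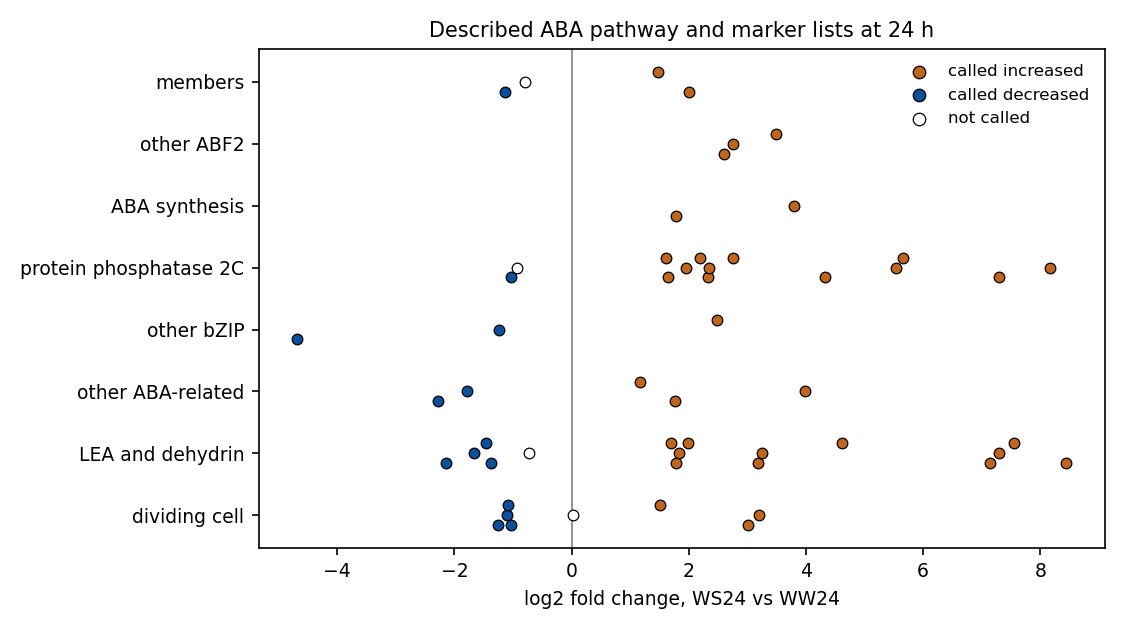
Log2 fold change in WS24 relative to WW24 of the 4 genes (members) and of each described gene in 7 lists, with 1 point per gene, filled where it was called increased or decreased. The 3 other ABF2 genes and both synthesis genes lie at a log2 change of 1.78 or above, whereas every other list has points on both sides of 0.

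Genes listed under cell division by their descriptions moved with the stress in both directions. Of 8 such genes from the same table, 3 were increased and 4 decreased in WS24, again beside 9.27% and 5.64% of all features, and none was at 0 counts in any group. The list holds a gene described as an inhibitor of, or interactor with, cyclin-dependent kinase, so its sum is not a measure of dividing cells. The summed level of the 8 genes was 147 to 164 CPM in WS24, against 117 to 118 CPM in WW24. In WS48 it was 128 to 130 CPM, against 116 to 132 CPM in WW48. The higher sum in WS24 was carried by histone H1-3 (Zm00001d045478), a linker histone, which averaged 90.1 ± 5.78 CPM in WS24 and 9.7 ± 6.6 CPM in WW24. Without this gene, which was singled out after its values were seen, the sum of the other 7 genes was lower under stress, at 61.4 to 67.1 CPM in WS24, against 101 to 111 CPM in WW24, and 60.2 to 66.1 CPM in WS48, against 108 to 118 CPM in WW48. Cyclin D4;1 (Zm00001d050475) rose by 1.51 (SE 0.15) and origin recognition complex protein 6 (Zm00001d022226), which marks sites of DNA replication, fell by 1.09 (SE 0.11) on the log2 scale. Their part in the changes of the receptor, kinase and ABF2 transcripts was not tested.

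The transcripts closest in pattern were sought for each gene among 1374 described features, by the root mean square difference of their log2 CPM, each centered on its own mean, over the 12 libraries. The described features come from the study's table, which holds only transcripts that changed at 48 h. The ABF2 transcripts were 0.24 apart from each other, and the receptor and kinase 0.35 apart, whereas each ABF2 transcript was 1.2 to 1.55 from the receptor or kinase. Zm00001d031790 was closest to the dehydrin Zm00001d051420, at 0.11, which was also the nearest of all 26745 other features. That dehydrin averaged 903 ± 63.8, 786 ± 43.6, 229 ± 13.7 and 249 ± 32.4 CPM in WS24, WS48, WW24 and WW48. Next was phytoene synthase (Zm00001d021410), the first committed enzyme of carotenoid synthesis, also at 0.11.

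Zm00001d050018 was closest to a gene described as a transmembrane receptor (Zm00001d029053, 0.11), again the nearest of all features, and to a gene of the major facilitator superfamily (Zm00001d053334, 0.13). The kinase was closest to a peroxidase (Zm00001d040399, 0.13) and to a leucine-rich receptor-like kinase (Zm00001d041236, 0.15), which ranked 2 and 12 among all features. The receptor had less close neighbours, tetraspanin 6 (Zm00001d011769, 0.22) and BCL-2-associated athanogene 3 (Zm00001d035999, 0.22), which ranked 2 and 3. The median distance over all features was 0.976 for Zm00001d031790, 0.783 for Zm00001d050018, 0.578 for the kinase and 0.727 for the receptor. The choice of the genes used these profiles, and the distances are a description.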

How the data were processed

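The authors sequenced strand-specific paired-end libraries, aligned reads with HISAT2 (version 1.0 in the submitters' processing notes) to B73 RefGen_v4, with an assembly for FR697, and counted them over exons with HTSeq 0.6.1. No source used here states the strand setting of the counting, and overlapping, antisense and near-identical genes are therefore uncertain. They deposited raw counts, used here, and 12 columns of normalized values, rounded to whole numbers and so treated as a score, which were not used here. Summary rows of the counter (reads not aligned, and no feature 1.87 to 2.25%, ambiguous 0.942 to 1.08%, low quality 3.2 to 3.7%) were left out of library sizes.

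Counts were filtered with filterByExpr (minimum count 10), scaled by TMM (factors 0.926 to 1.06) and tested with edgeR 4.0.16 in R 4.3.3 (quasi-likelihood F-test, 1 mean per group, Benjamini-Hochberg adjustment over 26746 features). The SE is the change divided by the square root of F, and intervals are at 95%. Log2 CPM used a prior count of 2. Alternatives included DESeq2 1.42.0. The procedure was tested on simulated data. No replicates agreed within sampling noise (chi-square per gene 5.48 to 34.5).

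The genes and lists were chosen with earlier results of these data known. Named genes were the members, the other ABF2 genes, up to 2 per list by adjusted p at 24 h, and the 2 described features closest in profile. Descriptions came from a supplementary table of the study, whose values were not used. The RefSeq table matched 0 of the 4 genes, so no sequence, position or length is given.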

Additional observations from a re-analysis of the deposited data

How the results depend on the processing

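Both ABF2 transcripts were called increased at 24 h under every alternative run, with log2 changes of 1.97 to 2.14 for Zm00001d031790 and 1.38 to 1.62 for Zm00001d050018. The kinase was not called except with the adjusted p alone (−0.79). The receptor lost its call with no scaling factors (−0.99), with glmTreat, which tests against the fold threshold (−1.13, adjusted p = 0.941), and without WS24 replicate 1 or WW24 replicate 2 (range over the libraries left out −1.52 to −0.86). The cause was not tested. Leaving out a library gave −0.86 to −0.73 for the kinase, 1.97 to 2.04 and 1.38 to 1.53 for the ABF2 genes and 0.43 to 0.64 for the difference of their ratio. With no scaling factors the 48 h changes relative to WW48 and WW24 were −0.96 and −1.003 for the kinase, 1.88 and 1.95 for Zm00001d031790 and 1.54 and 1.53 for Zm00001d050018.

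Over all features at 24 h, 2480 were called increased and 1508 decreased. With glmTreat 1224 were increased and 640 decreased, without a fold threshold 5868 and 5727, and among features over 3 CPM 1578 were increased. They were 2313 to 2647 and 1379 to 1529 with a library left out. Of the 51 listed genes, cell division included, 35 were increased and 13 decreased, with 6 decreased with glmTreat and 11 to 14 with a library left out. Between WW48 and WW24, 211 were increased and 51 decreased. DESeq2 gave 373 and 105, dropping the fold threshold 501 and 191, and a fit of only those groups 42 and 17. edgeR's glmTreat gave 0 and 1, with 307 and 134 at an unadjusted p under 0.05. With a library left out the counts were 71 to 333 and 24 to 62. The increased count moved by over 1.5 times without WW48 replicate 3 (333), WW48 replicate 1 (71), WW24 replicate 2 (85), WW24 replicate 3 (91) or WS48 replicate 1 (138), and the decreased count without WW24 replicate 3 (24) or WW48 replicate 1 (28). The small age changes turned sign in some fits without a library, ranging over −0.30 to 0.13 for the receptor, −0.14 to 0.016 for the kinase (0.002 without WW24 replicate 3) and −0.12 to 0.0218 for Zm00001d050018 (0.006 without WW48 replicate 3).

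Replicate numbers did not pair the samples: 1 of 18 same-numbered pairs had a correlation of deviations over 0.1 (range −0.504 to 0.111), and 1 of 12 libraries correlated best with its own number. Whether libraries of the same experiment carry different numbers was not tested. With the replicate block, 117 features were increased and 33 decreased between WW48 and WW24, and the receptor change at 24 h was −1.16 (adjusted p = 0.00534). The block changed no call of the 4 genes at 24 h.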
